A study of Bos taurus with 24 samples.

Results

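Muscle biopsies that carried a high level of the immediate early genes FOS and FOSB were compared with biopsies that carried a low level. The 24 arrays came from needle biopsies of gluteus medius, a muscle of the hindquarter, taken from 12 cows (Bos taurus), 6 of high and 6 of low weight gain, at 2 biopsies per cow. An array entered if its deposited value of ACTA1, skeletal muscle actin, was 18 or more, which 23 of the 24 arrays met, and its score was the mean of its deposited FOS and FOSB values. Within each biopsy number the 4 arrays with the highest score were called FOS-high and the 4 with the lowest FOS-low, which gave 8 arrays against 8. The other 7 arrays fell in neither group. These groups were made from measured values and are no treatment groups. The labels name no agent given to raise FOS, and a difference in another gene shows only that its level goes with the level of FOS and FOSB.

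The cows were chosen from 121 in a feeding trial as the 6 with the highest and the 6 with the lowest gain while feed was freely offered. The protocol places muscle sampling at day 105 of a 112-day period on 120 kcal of metabolizable energy per kg of body weight to the power 0.75, and again at day 49 of a second period, also 112 days, with feed freely available. The titles give only a biopsy number, 1 or 2, which is taken to follow the protocol's order. All cows went through both periods, and the labels used here give neither age nor breed. RNA came from whole tissue, so fewer cells of a type and less RNA per cell cannot be told apart.

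FOS and FOSB code for proteins that pair with a JUN protein to form the transcription factor AP-1. They belong to the immediate early genes, which are transcribed within minutes of a stimulus through factors already present in the cell and need no new protein. The group also holds the NR4A nuclear receptors, EGR1, the Krüppel-like factors and the MAP kinase phosphatase DUSP1, which switches off the kinases that drive the response. In skeletal muscle these genes are known to respond to contraction, stretch and injury.

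The values that chose the arrays are given as a description, and the difference between the groups in them has no test. At biopsy 1 FOS read 12.04, 13.03, 14.73 and 14.88 on the FOS-high arrays and 8.65, 8.89, 9.68 and 10.57 on the FOS-low arrays, on the log2 scale of the deposited table. At biopsy 2 it read 13.54, 14.39, 14.63 and 15.36 on the FOS-high and 8.74, 9.89, 9.94 and 10.64 on the FOS-low arrays. FOSB read 8.02, 8.12, 9.80 and 9.99 against 7.05, 7.07, 7.43 and 7.66 at biopsy 1, and 8.999, 9.36, 9.82 and 11.03 against 7.51, 7.55, 7.59 and 7.80 at biopsy 2. The biopsy 1 FOS-high arrays thus split into a pair from high gain cows 2 and 5 with bright FOSB and a pair from low gain cows 1 and 5 with dimmer FOSB, 8.12 or less. The groups shade into the rest. The lowest FOS-high score at biopsy 1 was 10.03 and the nearest array outside read 9.84, and the highest FOS-low score was 8.81 against 9.16 outside. At biopsy 2 the limits were wider apart on the high side, 11.27 against 10.47, and close on the low side, 9.09 against 9.35. Ranking by FOS alone or by FOSB alone chose the same 16 arrays.

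**Figure D1:**
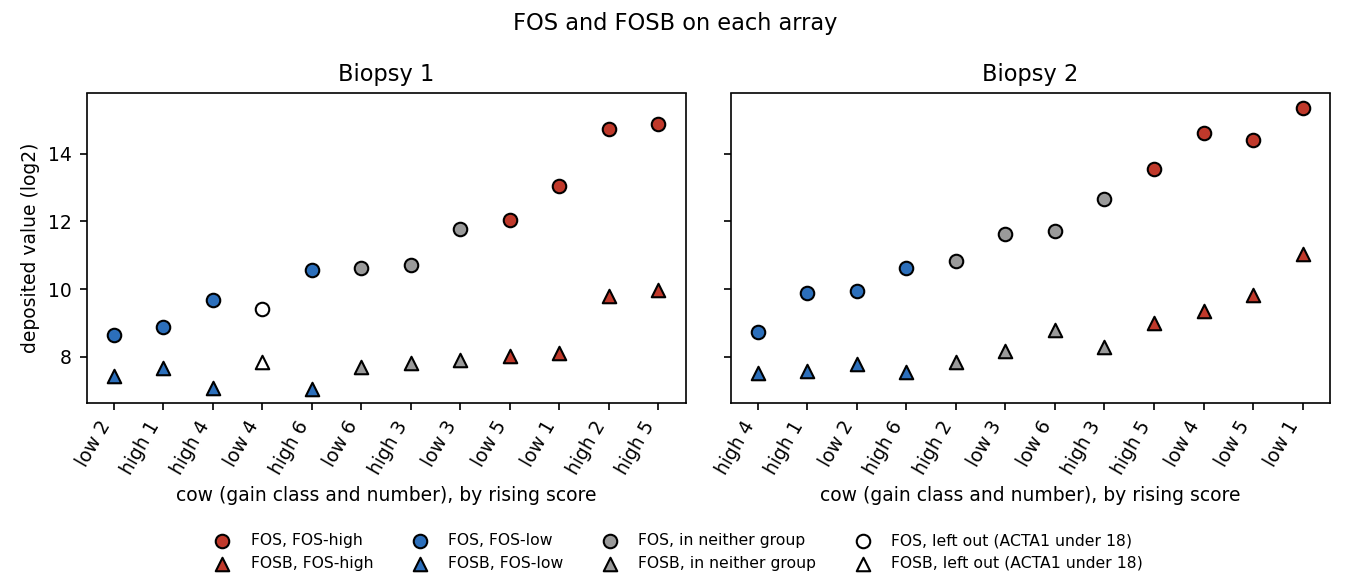
Deposited log2 values of FOS (circles) and FOSB (triangles) on each array, one panel per biopsy, with cows ordered by rising score and named by gain class and number. FOS-high arrays (red) read FOS at 12.04 or more and FOS-low arrays (blue) at 10.64 or less, and the open symbols are the array left out for its ACTA1 value.

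The 16 arrays came from only 9 cows, and the membership of a cow was often the same at both. Of 5 cows with a FOS-high array, 3 (low gain cows 1 and 5 and high gain cow 5) were FOS-high at both biopsies, and all 4 cows with a FOS-low array (high gain cows 1, 4 and 6 and low gain cow 2) were FOS-low at both. No cow was high at one biopsy and low at the other. Over the 11 cows with 2 usable arrays the scores at the biopsies correlated with Pearson's r = 0.507 (permutation p = 0.1085, two-sided) and Spearman's rho = 0.755 (permutation p = 0.0098). Without high gain cows 5 and 2, chosen as the farthest from the median at biopsy 1, r was 0.912 and rho 0.883 over 9 cows, given as a description because these cows were left out for their own scores. High gain cow 2 showed the greatest fall, from a score of 12.26 to 9.35, and low gain cow 1 the greatest gain, from 10.58 to 13.20, values set across 2 sets of arrays whose scaling may differ.

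Gain class was unevenly spread over the groups, with 3 high gain arrays among the FOS-high and 6 among the FOS-low. At biopsy 1 the score was 9.90 ± 1.93 in high gain cows (SD, n = 6) and 9.53 ± 0.97 in low gain cows (n = 5), a difference of 0.37 (exact permutation p = 0.677, two-sided). At biopsy 2 it was 9.51 ± 1.16 in high gain and 11.05 ± 1.63 in low gain cows, a difference of -1.55 (n = 6 and 6, exact permutation p = 0.0866). The change between biopsies was -0.40 ± 1.47 in high gain and 1.34 ± 1.02 in low gain cows (exact permutation p = 0.0519, n = 6 and 5). Adjusted over these 3 tests the p-values were 0.677, 0.130 and 0.130, so none held, and the sign at biopsy 1 turned when high gain cow 2 or 5 was left out (-0.10 and -0.13). Without low gain cow 2 the difference at biopsy 2 was -1.98 (exact permutation p = 0.0346), the smallest p of 12 such tests with a cow left out. Their p-values ran up to 0.173 and were not adjusted.

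The deposited table held 26773 array features, of which 18444 named genes were kept at 1 feature each and 14196 passed a filter on dim genes, FOS and FOSB not counted. Array medians were 7.68 to 7.88 at biopsy 1 and 7.79 to 7.85 at biopsy 2, and the highest values, 19.81 and 19.93, differed between the biopsy sets, so every test across genes compared arrays within a biopsy number or had biopsy number as a block. In 43 genes an array lay within 0.05 of the highest value of its set, and no gene given a difference or slope below is one of them. Skeletal muscle markers were bright on all 16 arrays, at a mean over 11 genes of 17.88 to 18.77, with the lowest on the FOS-low array of high gain cow 4 at biopsy 2. That array also carried the highest mean of 16 adipocyte markers, 15.01, against 9.41 to 13.13 on the other 15. List counts that change without this cow are given both ways.

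No gene passed a false discovery rate of 0.05 in the comparison of 8 with 8 arrays (limma with biopsy number as a block, Benjamini-Hochberg over 14196 genes, 0% called). The smallest adjusted p, 0.0818, was shared by DUSP1, OTUD1, JUNB and the microRNA gene MIR2315. At an unadjusted p under 0.05 there were 433 higher genes (3.05%) and 360 lower genes (2.54%), 5.59% in either direction. With the cow as a random block 671 genes were under 0.05 and again none passed. Without high gain cow 1, 7 genes passed, and without high gain cow 5, 1. The 16 arrays are not 16 independent animals, and the p-values of this fit take them as such.

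Used as a graded measure, the score did single out genes. Regression on the score within biopsies over all 23 arrays found 20 genes (0.141% of 14196), 17 that rose and 3 that fell with it, at a false discovery rate of 0.05. At an unadjusted p under 0.05 there were 664 positive slopes (4.68%), and slopes of either sign made up 8.68%. The genes that rose were the AP-1 members JUN, JUNB, JUND and ATF3, the nuclear receptor NR4A3, the immediate early regulators BTG2, CCN1, IER5, KLF4 and SIK1, and the phosphatase DUSP1. The muscle genes ABRA and ALPK3 also rose, as did IFRD1, OTUD1, FBL and ABHD4. MIR2315, CPTP and RNLS fell. Of the 20, 10 lay in the 3 lists of immediate early genes, which hold 51 of the tested genes. Of 57 genes on these lists, which do not hold FOS and FOSB, 2 were not found on the array by symbol. The others without a test lay under the filter on dim genes. Slopes ran from 0.17 to 1.52 log2 units of the gene per log2 unit of the score in the 17 genes that rose and from -0.28 to -0.16 in the 3 that fell. With the cow as a random block 21 genes passed, all 20 among them.

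The dimer partners of FOS moved with it. JUN, a strong activator within AP-1, read 13.29, 13.91, 14.88 and 15.26 on the FOS-high arrays of biopsy 1 and 11.85, 12.24, 12.30 and 14.06 on the FOS-low arrays. The second biopsy gave 14.07, 14.27, 14.54 and 14.92 against 11.27, 12.33, 13.04 and 13.37. The groups overlapped only at biopsy 1, through the FOS-low array of high gain cow 1 at 14.06. JUN was 1.83 ± 0.37 higher in the FOS-high arrays (log2 ± SE, adjusted p = 0.25) and rose by 0.58 ± 0.07 per unit of score (adjusted p = 0.000189).

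JUNB, which pairs with FOS but drives many targets less strongly than JUN, read 9.10, 9.34, 9.68 and 10.44 against 8.35, 8.51, 8.73 and 8.73 at biopsy 1. In the biopsy 2 set it read 10.18, 10.53, 11.05 and 11.39 against 9.35, 9.41, 9.76 and 9.80. The groups did not overlap at either biopsy, and each group stood higher at biopsy 2, a shift between 2 sets of arrays that the block removes. Its difference was 1.13 ± 0.20 (adjusted p = 0.0818) and its slope 0.34 ± 0.05 (adjusted p = 0.000916).

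ATF3, a stress-induced repressor that also pairs with JUN proteins, spread widely within the FOS-high arrays, at 8.78, 9.73, 10.39 and 13.69 at biopsy 1 and 9.98, 11.10, 11.41 and 13.57 at biopsy 2. The FOS-low arrays read 8.28, 8.65, 8.78 and 10.64 and then 8.44, 8.86, 9.15 and 9.73. The bright values were those of high gain cow 2 at biopsy 1 and low gain cow 1 at biopsy 2, and groups overlapped at biopsy 1 only. Its difference of 2.01 ± 0.62 did not pass (adjusted p = 0.741), and its slope of 0.74 ± 0.12 did (adjusted p = 0.00448). JUND, the constitutive member of the family, had a slope of 0.30 ± 0.05 (adjusted p = 0.00517) and a difference of 0.78 ± 0.25. Of 10 tested members of the AP-1 list, which does not hold FOS and FOSB, 6 were higher at an unadjusted p under 0.05 and none lower. The higher members not yet named were MAFK (0.54 ± 0.17), a small MAF protein, and FOSL2 (0.47 ± 0.20), a FOS relative. The median difference of the list was 0.50, against -0.0016 over all genes tested, of which 3.05% were higher at that threshold.

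The NR4A receptors act without a known ligand and are induced in muscle by exercise and adrenergic signals, and NR4A3 was the one that passed along the score. It read 10.15, 10.72, 12.41 and 13.27 on the FOS-high arrays of biopsy 1 and 7.57, 8.67, 8.90 and 9.85 on the FOS-low arrays. At biopsy 2 it read 9.35, 9.75, 10.34 and 12.27 against 6.70, 7.52, 7.66 and 9.31. No FOS-low array reached a FOS-high array of its biopsy, though at biopsy 2 the gap was only that between 9.31 and 9.35. Its difference was 2.76 ± 0.52 (adjusted p = 0.179) and its slope 0.88 ± 0.13 (adjusted p = 0.000931).

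NR4A2 was higher by 2.77 ± 0.57 (adjusted p = 0.258) and its slope of 0.79 ± 0.17 narrowly missed the threshold (adjusted p = 0.0533). On the FOS-high arrays it read 8.27, 9.72, 10.30 and 11.93 at biopsy 1 and 9.59, 11.86, 12.97 and 13.23 at biopsy 2. The lowest of these values, from high gain cow 2, lay inside the FOS-low range of 7.42 to 8.89, so this cow combined very bright ATF3 and NR4A3 with a low NR4A2. NR4A1 read 11.49 to 15.87 over the 16 arrays, with a difference of 1.23 ± 0.55 (adjusted p = 0.872). EGR1, a zinc finger factor of the same early wave, differed by 1.05 ± 0.45 (adjusted p = 0.871) with overlapping groups. In the list of 7 tested EGR and NR4A genes these 4 were higher at an unadjusted p under 0.05, none was lower, and the median was 1.05. Leaving out high gain cow 4, 3 of the 7 were under 0.05.

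Among 34 other immediate early regulators 11 were higher at an unadjusted p under 0.05 and none lower, with a median of 0.43. BTG2, an antiproliferative protein that promotes mRNA deadenylation, read 12.81, 12.88, 12.90 and 13.97 at biopsy 1 against 10.74, 11.72, 12.17 and 12.25 on the FOS-low arrays. The values of biopsy 2 were 13.52, 15.12, 15.50 and 16.32 against 11.33, 11.95, 12.16 and 13.59, with high gain cow 5 as the lowest FOS-high array just under high gain cow 6. Its slope was 0.62 ± 0.11 (adjusted p = 0.00757) and its difference 2.14 ± 0.42 (adjusted p = 0.25).

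IER5, an immediate early protein linked to the heat shock factor HSF1, read 7.91, 7.92, 8.93 and 10.01 against 7.18, 7.33, 7.42 and 7.81 at biopsy 1. On the biopsy 2 arrays it read 7.74, 8.07, 8.22 and 9.97 against 6.96, 7.002, 7.21 and 7.42. The groups did not overlap, and the values of 8.93 or more came from high gain cows 2 and 5 at biopsy 1 and low gain cow 1 at biopsy 2. The slope of IER5 was 0.47 ± 0.05 (adjusted p = 4.35e-05).

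CCN1, a secreted matrix protein that responds to stretch, rose by 0.53 ± 0.10 per unit of score (adjusted p = 0.0126). It read 10.51, 11.17, 12.45 and 13.15 against 9.91, 10.34, 10.70 and 11.33 at biopsy 1 and 12.50, 12.88, 12.98 and 14.05 against 10.14, 10.46, 10.51 and 12.10 at biopsy 2. Only the biopsy 1 groups overlapped. KLF4, a Krüppel-like transcription factor, and SIK1, a kinase induced by cyclic AMP, had small slopes of 0.18 ± 0.04 and 0.21 ± 0.04 (adjusted p = 0.0276 each). The others under an unadjusted p of 0.05 were HES1 (1.31 ± 0.42), a repressor in the Notch pathway, TRIB1 (1.04 ± 0.37), MCL1 (0.51 ± 0.17), ZFP36 (0.51 ± 0.18), which speeds the decay of early gene mRNAs, RHOB (0.49 ± 0.18) and KLF2 (0.32 ± 0.13). None of these 6 passed in the group comparison or along the score over all arrays. Leaving out high gain cow 4, the list had 14 higher and 1 lower gene.

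DUSP1, whose product removes phosphate from active MAP kinases, rose with the genes those kinases induce. On the FOS-high arrays it read 16.59, 16.88, 17.09 and 17.34 at biopsy 1 and 16.76, 16.84, 17.48 and 17.59 at biopsy 2. On the FOS-low arrays it read 14.60, 14.85, 15.40 and 16.29 and then 14.29, 15.56, 15.74 and 16.40. No FOS-low array reached a FOS-high array of its biopsy. Its difference of 1.68 ± 0.28 had an adjusted p of 0.0818 and its slope of 0.50 ± 0.07 one of 0.000931. DUSP10, a phosphatase of p38 and JNK kinases, differed by 1.03 ± 0.37 (adjusted p = 0.842), and these 2 were the only ones of 15 feedback genes under an unadjusted p of 0.05. Of 25 kinases and factors upstream of the early genes 1 was, RPS6KA3 (0.45 ± 0.21), a kinase downstream of ERK, against 3.05% of all genes higher. Without high gain cow 4 there were 1 higher and 2 lower.

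**Figure D2:**
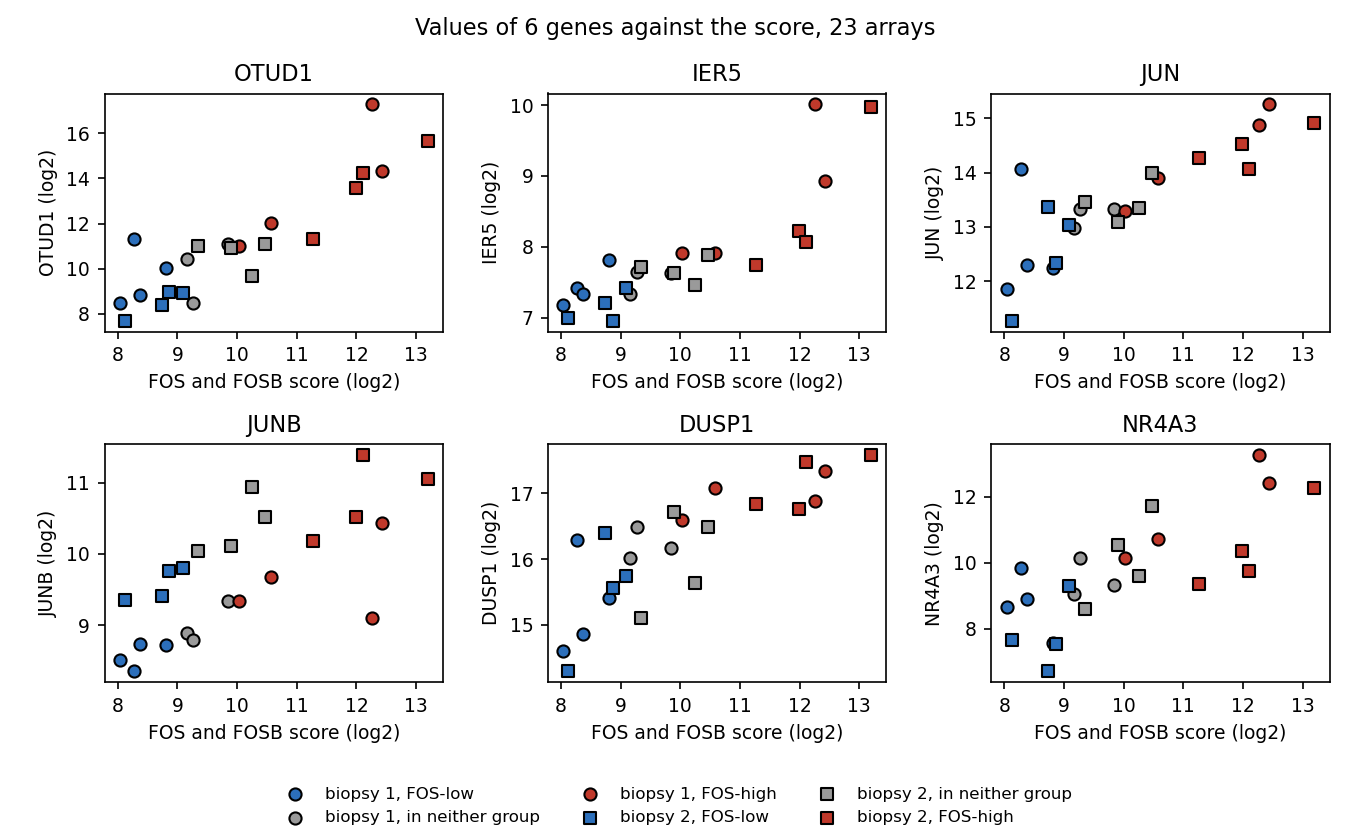
Deposited log2 values of OTUD1, IER5, JUN, JUNB, DUSP1 and NR4A3 (vertical axes) against the score, the mean log2 value of FOS and FOSB (horizontal axes), for 23 arrays, by biopsy (circle or square) and group (colour). Each gene rises with the score in both biopsies, and JUNB lies higher in the biopsy 2 set, whose scaling may differ from that of biopsy 1.

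OTUD1, a deubiquitinating enzyme, followed the score more closely than any other gene. It read 10.999, 12.02, 14.33 and 17.29 on the FOS-high arrays of biopsy 1 and 11.31, 13.58, 14.24 and 15.67 on those of biopsy 2. On the FOS-low arrays it read 8.47, 8.82, 10.03 and 11.33 and then 7.69, 8.38, 8.94 and 8.96. A single pair broke the order, low gain cow 5 at 10.999 under high gain cow 1 at 11.33, both at biopsy 1. The difference was 4.60 ± 0.79 (adjusted p = 0.0818) and the slope 1.52 ± 0.14 (adjusted p = 1.11e-06), so OTUD1 moved by more than the score, a mean of FOS and FOSB. FOS alone averaged 13.67 against 9.45 at biopsy 1 and 14.48 against 9.80 at biopsy 2. FOSB ranged less, at 8.98 against 7.30 and 9.80 against 7.61, and lay under the array median on every FOS-low array.

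Likeness was measured as Pearson's correlation of values centred within each biopsy over the 23 arrays, as a description, since all values of an array share its RNA and hybridization. The genes most like the score were OTUD1 at 0.92, IER5 at 0.88, JUN at 0.86, JUNB at 0.84, DUSP1 and NR4A3 at 0.82, IFRD1 at 0.80, JUND at 0.79, ATF3 at 0.78 and BTG2 at 0.77. The genes most opposed to it were CPTP at -0.77, MIR2315 and RNLS at -0.75, PDCD6IP at -0.73 and RMDN1 at -0.72.

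The muscle genes ABRA and ALPK3 rose with the score, and so did IFRD1. ABRA, an actin-binding protein of striated muscle, read 9.97, 10.70, 14.13 and 17.00 against 9.78, 10.34, 10.55 and 12.57 at biopsy 1. At biopsy 2 it read 10.73, 11.48, 11.51 and 12.04 against 8.40, 9.28, 9.50 and 9.66. Both low gain FOS-high arrays of biopsy 1 lay within the FOS-low range, and the groups of biopsy 2 did not overlap. Its slope was 0.82 ± 0.16 (adjusted p = 0.0276).

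IFRD1, a co-regulator of transcription in muscle differentiation, had a slope of 0.73 ± 0.11 (adjusted p = 0.0025) and read 15.83 on high gain cow 2 at biopsy 1, where the other FOS-high arrays read 11.49 to 12.47. ALPK3, a kinase-like protein of the sarcomere, had a slope of 0.42 ± 0.08 (adjusted p = 0.0276). FBL, the nucleolar methyltransferase of ribosomal RNA, rose by 0.17 ± 0.03 (adjusted p = 0.0416) and ABHD4, a lipid hydrolase, by 0.26 ± 0.05 (adjusted p = 0.0461).

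Separation of the groups at both biopsies was a stricter view. In 8 genes every FOS-high array was above every FOS-low array of its biopsy (0.0564% of 14196) and in 1 every one was below (0.00704%). DUSP1, IER5, JUNB and NR4A3, named above, were 4 of the 8. SLC20A1, a phosphate transporter, differed by 0.82 ± 0.18, CCNL1, a cyclin that works with the splicing machinery, by 0.71 ± 0.16, and DNAJB1, a co-chaperone of HSP70, by 0.92 ± 0.22. The last of the 8 was PEX2, a peroxisome gene named after its values were seen, at 0.34. CCNL1 read 11.89 to 12.48 against 10.74 to 11.77 at biopsy 1 and 10.05 to 10.66 against 9.65 to 9.94 at biopsy 2. The lower gene was PDCD6IP, an adaptor of membrane scission, which read 13.46 to 13.68 against 13.85 to 14.05 and then 13.96 to 14.09 against 14.25 to 14.48, a difference of -0.31 ± 0.10.

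Of the 3 genes that fell none belonged to a list. MIR2315, a bovine microRNA gene measured here by a gene-level feature and not as a mature strand, read 13.50, 13.80, 13.88 and 14.21 against 14.89, 14.89, 15.15 and 15.47 at biopsy 1. The second biopsy gave 14.63, 14.89, 15.14 and 15.78 against 15.78, 15.84, 16.32 and 16.39. The groups were apart at biopsy 1 and met at 15.78 at biopsy 2. It fell by 0.28 ± 0.05 per unit of score (adjusted p = 0.0276), with a group difference of -1.11 ± 0.18 (adjusted p = 0.0818).

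CPTP, a transfer protein for ceramide-1-phosphate, fell by 0.16 ± 0.03 (adjusted p = 0.0276), and RNLS, a flavoprotein oxidase, fell by 0.17 ± 0.03 (adjusted p = 0.0461). RNLS separated the groups at biopsy 2, at 8.52 to 8.82 against 9.33 to 9.71, and not at biopsy 1, at 8.97 to 9.53 against 9.11 to 9.48. The lower genes with the next smallest p in the group comparison were GATM (-0.77 ± 0.18), of creatine synthesis, SHMT2 (-0.52 ± 0.12), of mitochondrial serine use, SH3PXD2A (-0.62 ± 0.15), SCARB1 (-0.61 ± 0.15), a lipoprotein receptor, and EDNRA (-0.50 ± 0.13), an endothelin receptor. KLHL12 (-0.42 ± 0.11), THOC3 (-0.29 ± 0.08), of mRNA export, and GSTM2 (-0.80 ± 0.21), a glutathione transferase, followed. None of these 8 passed, with adjusted p-values of 0.526 to 0.623.

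Stress, contraction and fuel genes were examined as lists in the group comparison at an unadjusted p under 0.05. There 3.05% of all genes were higher and 2.54% lower. Of 28 heat shock chaperones 3 were higher, DNAJB1, DNAJB4 (1.67 ± 0.58) and the factor HSF2 (0.74 ± 0.30), none was lower, and 25 of 28 differences were above 0, with a median of 0.39. Leaving out this cow's arrays, high gain cow 4, gave a median of 0.19, with 2 higher and 1 lower. Along the score 12 of the 28 chaperone slopes were positive and 1 negative at an unadjusted p under 0.05. Over all genes 4.68% of slopes were positive at that threshold, and no chaperone passed the false discovery rate. Of 21 stretch and sarcomere repair genes 7 were higher and 1 lower, with a median of 0.33. The higher genes were the sarcomere proteins TCAP (0.96 ± 0.30), CSRP3 (2.22 ± 0.98), XIRP1 (1.92 ± 0.78) and cardiac actin ACTC1 (2.26 ± 0.89), with LMCD1 (1.48 ± 0.52), RRAD (1.73 ± 0.65) and OTUD1. OTUD1, a deubiquitinating enzyme and no sarcomere protein, was the gene most like the score and the only 1 of the list to pass along it. The lower gene was MYBPH (-1.05 ± 0.44). Without high gain cow 4, 3 were higher and none lower. The median of this list was 0.07 at biopsy 1 and 0.49 at biopsy 2, and ACTC1 differed by 0.04 and 4.47. At biopsy 1 XIRP1 read 18.12 and RRAD 16.24 on high gain cow 2, and at most 13.78 and 13.64 on the other FOS-high arrays. The highest CSRP3 of biopsy 1, 18.81, was on the FOS-low array of high gain cow 1.

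Fuel genes included wide differences. RCAN1, an inhibitor of calcineurin that calcineurin signalling induces, was 3.40 ± 0.87 higher (adjusted p = 0.623). It read 13.97, 14.09, 16.09 and 18.10 against 11.44, 12.91, 14.14 and 16.27 at biopsy 1 and 14.34, 16.63, 16.69 and 17.50 against 10.17, 10.35, 10.69 and 14.24 at biopsy 2. The groups were apart at biopsy 2 only, and its slope of 1.06 ± 0.23 missed the threshold (adjusted p = 0.0683). PDK4, which blocks pyruvate entry into mitochondria during fasting and exercise, differed by 2.76 ± 0.92 (adjusted p = 0.815) with overlap at both biopsies. Of 25 exercise and fuel genes 5 were higher, with ABRA, CPT1B (0.82 ± 0.34), for entry of fatty acids into mitochondria, and TBC1D1 (0.47 ± 0.20), and 1 lower, the insulin receptor substrate IRS1 (-0.76 ± 0.32). Their median was 0.15, and without high gain cow 4 there were 4 higher and 0 lower. CPT1B differed by -0.12 at biopsy 1 and by 1.75 at biopsy 2.

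Of 20 glucocorticoid and atrophy genes 3 were higher, the metallothionein MT2A (1.22 ± 0.44), the muscle ubiquitin ligase TRIM63 (1.19 ± 0.44) and CEBPD (0.81 ± 0.30). Of 15 stress and growth arrest genes 2 were, DDIT4 (1.14 ± 0.36) and TXNIP (0.42 ± 0.16). Among 14 myogenic regulators MYF6 was higher (1.57 ± 0.62) and MYOD1 (-0.50 ± 0.22) and the satellite cell cadherin CDH15 (-0.19 ± 0.09) were lower. Of 13 cyclic AMP genes NR4A3 and PRKAR1A (0.37 ± 0.16) were higher, and of 22 splicing genes CCNL1 and SRSF7 (0.44 ± 0.18). When high gain cow 4 was left out, the myogenic list had 0 higher and 2 lower members and the cyclic AMP list 1 higher.

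Between FOS-high and FOS-low arrays, shares near the background were found in the inflammatory and clock lists. The same held for the list of upstream kinases and factors. Of 25 cytokine and NF-kB genes NFKB1 was higher (0.31 ± 0.14) and TNFAIP3 lower (-0.17 ± 0.08). Among 15 clock genes NPAS2 was lower (-0.23 ± 0.09) and none was higher. When high gain cow 4 was left out, 0 members of either list were under 0.05. In that comparison no member was under 0.05 among 18 hypoxia genes or 17 cytoskeletal targets of SRF. Along the score 6 of 25 cytokine and NF-kB genes had a positive slope at an unadjusted p under 0.05. So did 3 of 25 upstream kinases and factors, against 4.68% of all genes. Neither list had a negative slope at that threshold, and the clock list had no slope of either sign. The lists were drawn up with earlier results of these data known, so their counts describe and are not independent support. Without high gain cow 4 there were 302 higher genes (2.13%) and 371 lower genes (2.61%) in all.

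**Figure D3:**
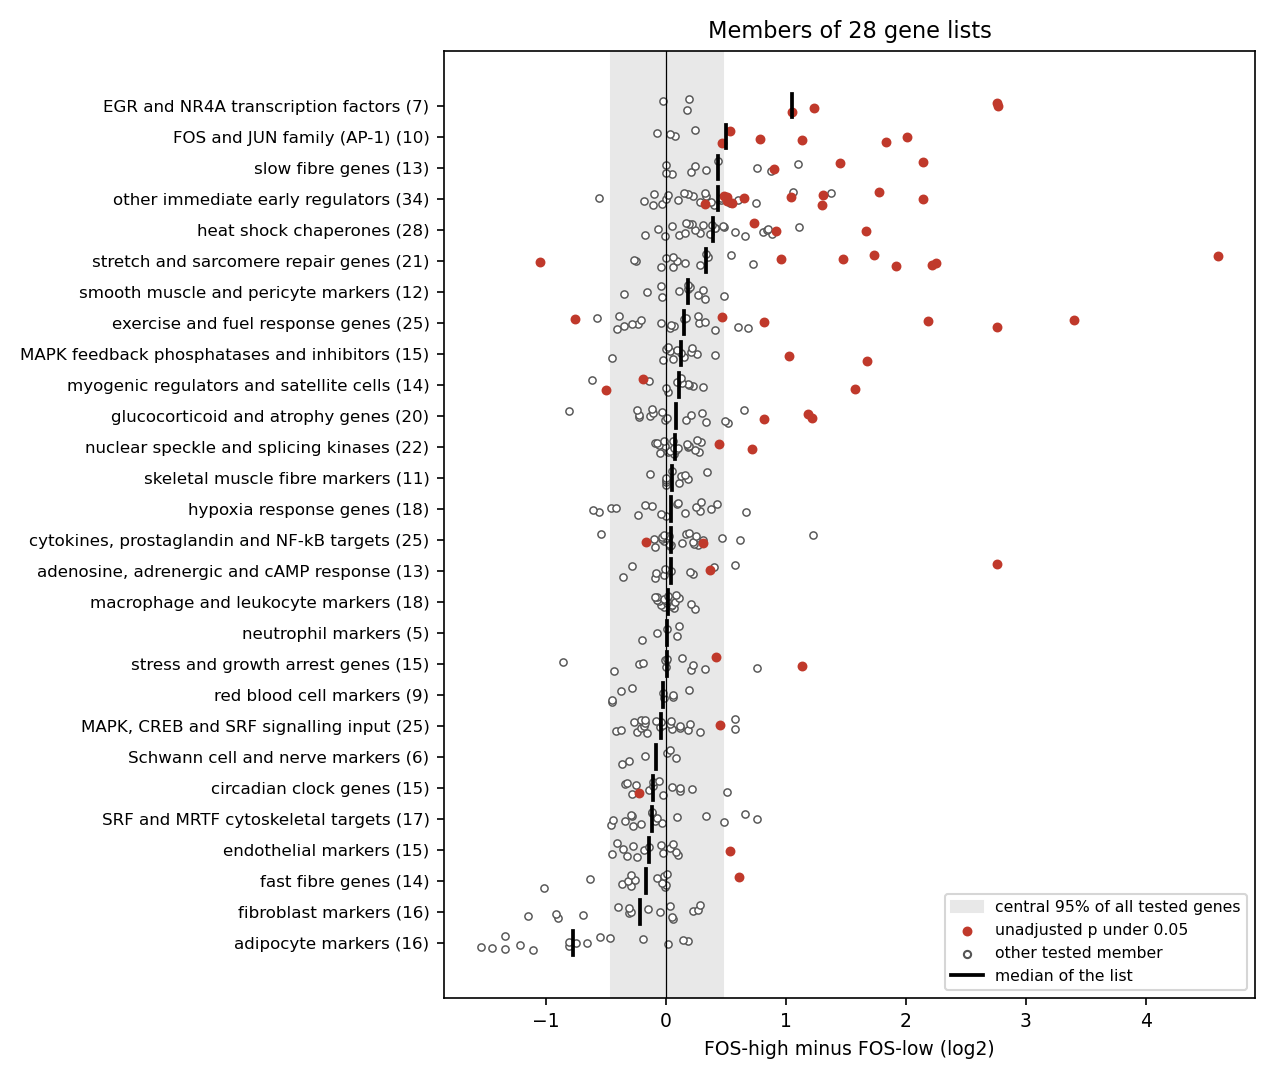
Difference of FOS-high and FOS-low arrays (log2, horizontal axis) for each tested member of 28 gene lists, ordered by their median (black bar), with the number of tested members in brackets. Filled points have an unadjusted p under 0.05, and the grey band holds the central 95% of all tested genes, from -0.46 to 0.47. The EGR and NR4A list has the highest median, 1.05, and the adipocyte list the lowest, -0.78, or -0.23 without high gain cow 4.

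Slow fibre level separated the groups at biopsy 2, and some fat and connective tissue markers were lower there. The mean level of 13 slow fibre genes was 18.01 to 18.32 on the FOS-high and 16.01 to 17.89 on the FOS-low arrays of biopsy 2, with no overlap. At biopsy 1 it was 16.60 to 17.54 against 16.57 to 17.57. MYH7, MYL2, TNNC1, ATP2A2 and MB of this list lay within 0.05 of the highest value of their set on 5 to 23 of the 24 arrays, so the mean understates their range. The part of the slow fibre level in the differences of biopsy 2 was examined only as a covariate. Fast fibre genes read 16.45 to 17.45 against 17.16 to 17.83 at biopsy 2. Of the slow fibre list MYOZ2 (2.14 ± 0.64), MYH7B (1.45 ± 0.54) and the slow troponin TNNT1 (0.90 ± 0.41) were higher at an unadjusted p under 0.05, and of the fast list PVALB was (0.61 ± 0.28). Without high gain cow 4, 2 of the slow and 0 of the fast list were. Between the biopsy 2 groups, 9 of 13 slow fibre genes were higher and 3 of 14 fast fibre genes lower at an unadjusted p under 0.05. Over all genes 5.11% were higher and 4.25% lower, and without high gain cow 4 the counts of these lists were 7 and 5.

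Adipocyte markers read 9.61 to 11.07 on the FOS-high and 9.91 to 15.01 on the FOS-low arrays of biopsy 2, and 9.42 to 11.27 against 9.41 to 11.03 at biopsy 1. LEP, the leptin gene, read 12.32 on high gain cow 4 and 9.54 on low gain cow 2 among the FOS-low arrays of biopsy 2, and at most 6.80 on the FOS-high arrays. None of 16 adipocyte, 16 fibroblast, 12 smooth muscle, 18 macrophage and leukocyte, 5 neutrophil, 9 red blood cell or 6 Schwann cell markers was under 0.05 in either direction in the comparison of 8 with 8, and 1 of 15 endothelial markers was, FLT1 (0.53 ± 0.20). Without high gain cow 4, 1 red blood cell marker was higher. Within biopsy 2, 5 of 16 adipocyte markers (PLIN1, LEP, LIPE, PCK1 and THRSP) and 4 of 16 fibroblast markers (COL1A1, COL1A2, COL3A1 and FAP) were lower at an unadjusted p under 0.05, and none of either list was lower without high gain cow 4. Fibroblast markers averaged 9.38 to 9.72 on the FOS-high and 9.69 to 11.55 on the FOS-low arrays of biopsy 2, and 9.12 to 10.78 against 8.66 to 11.07 at biopsy 1. Along the score 3 fibroblast slopes and 1 adipocyte slope were negative at an unadjusted p under 0.05. The part of these markers in the biopsy 2 results was not tested. Macrophage and leukocyte markers lay between 7.64 and 8.47 on average and neutrophil markers between 6.80 and 7.81, on all 16 arrays.

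**Figure D4:**
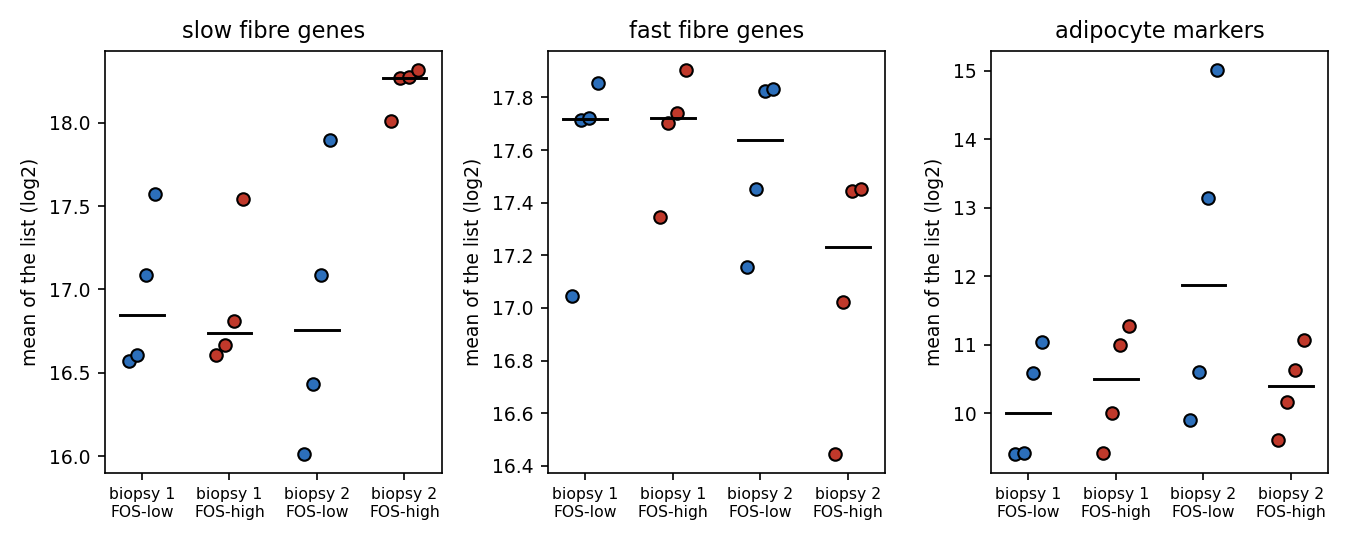
Mean log2 level of 13 slow fibre, 14 fast fibre and 16 adipocyte genes (vertical axes) on each array of the 4 groups, with the group median as a bar. Slow fibre levels separate the biopsy 2 groups, 18.01 to 18.32 against 16.01 to 17.89, and overlap at biopsy 1, and 1 FOS-low array of biopsy 2 has an adipocyte mean of 15.01.

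Compared within a biopsy, 4 arrays against 4, no gene passed at biopsy 1 (583 at an unadjusted p under 0.05) and 7 passed at biopsy 2 (0.0493%). None of the 7 is an immediate early gene. ARG2, a mitochondrial arginase, read 8.36, 8.52, 9.08 and 9.76 against 6.79, 6.82, 6.97 and 7.36, a difference of 1.94 ± 0.25 (adjusted p = 0.0115), and KCNIP2, a partner of potassium channels, was higher by 1.22 ± 0.17 (adjusted p = 0.0211). FABP3, the fatty acid binding protein of oxidative muscle, was higher by 3.34 ± 0.57 (adjusted p = 0.0496). It read 17.60, 18.005, 18.14 and 18.63 against 13.14, 14.15, 14.97 and 16.75, the same split as the slow fibre genes. MRPS6, of the mitochondrial ribosome (2.44 ± 0.40), and ACSS1, which activates acetate in mitochondria (1.05 ± 0.17), were also higher, and EDA2R, a receptor of the tumour necrosis factor family (-3.13 ± 0.51), and CACHD1 (-1.01 ± 0.16) lower.

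With the slow fibre mean as a covariate none of the 7 passed, at 440 genes under an unadjusted p of 0.05. That mean separated the biopsy 2 groups without overlap, so this fit cannot tell its part from that of the FOS and FOSB level. The difference of FABP3 was then 1.42 and that of ARG2 1.64. At biopsy 1 the same genes differed by -0.68 for FABP3, 0.34 for ARG2 and 0.33 for EDA2R. No gene passed the test of the difference between biopsies (smallest adjusted p = 0.383, 912 genes at an unadjusted p under 0.05), so a change of these differences with feeding period was not shown. The smallest p-values of that test belonged to ACSS1, NACAD, FABP3, ROS1 and ARG2, which stood higher by 0.71 to 4.02 in the biopsy 2 than in the biopsy 1 difference, and to EDA2R, RASSF3, CACHD1, DNAJC1 and UHMK1, which stood lower by values of -3.46 to -1.01. Single cows decided the calls. None was made without low gain cow 1, low gain cow 2 or high gain cow 6, 1 without low gain cow 4 or 5, 2 without high gain cow 2 or 4, and 123 without high gain cow 1. High gain cow 2 was in neither group at biopsy 2, so leaving it out acted only through the shared fit.

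The 20 genes were also fitted at each biopsy. Of them 19 had the same sign and an unadjusted p under 0.05 at each biopsy. Over all genes 1423 were under 0.05 in either direction at biopsy 1 and 1822 at biopsy 2. The 20 were chosen by their slope over these same arrays, so the 19 are a description and no independent support. In the joint fit 5 genes passed at biopsy 1 (0.0352%), with OTUD1, IER5 and JUN among them besides RHOB and the integrin ITGA5. At biopsy 2, 13 passed (0.0916%), 9 of them among the 20. No slope difference between biopsies passed (smallest adjusted p = 0.226, 1888 at an unadjusted p under 0.05). The gene of the 20 outside the 19 was RNLS, with a slope of -0.09 at biopsy 1 (unadjusted p = 0.0739) and -0.23 at biopsy 2.

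A cow's own change between biopsies gave a view that leaves out stable differences between cows. With the cow as a fixed block over 11 cows, 8 genes passed (0.0564%), all with a positive slope: OTUD1 (1.804), ABRA (1.34), ATF3 (1.32), IER5 (0.64), JUND (0.48), CSRNP1 (0.46), a transcription factor induced by AXIN1 signals, HSPB8 (0.58), a small heat shock protein, and MICAL2 (0.47), which oxidizes actin. OTUD1, ABRA, ATF3, IER5 and JUND are 5 of the 20 genes, and 18 of the 20 had the same sign and an unadjusted p under 0.05 within cows. Over all genes 1039 were under 0.05 within cows in either direction. Since the 20 were chosen on these same arrays, the 18 are a description. JUN (0.50, adjusted p = 0.103), NR4A3 (1.05, adjusted p = 0.377) and DUSP1 (0.41, adjusted p = 0.236) did not pass there. Between cows, on the mean of a cow's arrays, 3 genes passed (0.0211%), OTUD1, NR4A3 and JUNB.

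**Figure D5:**
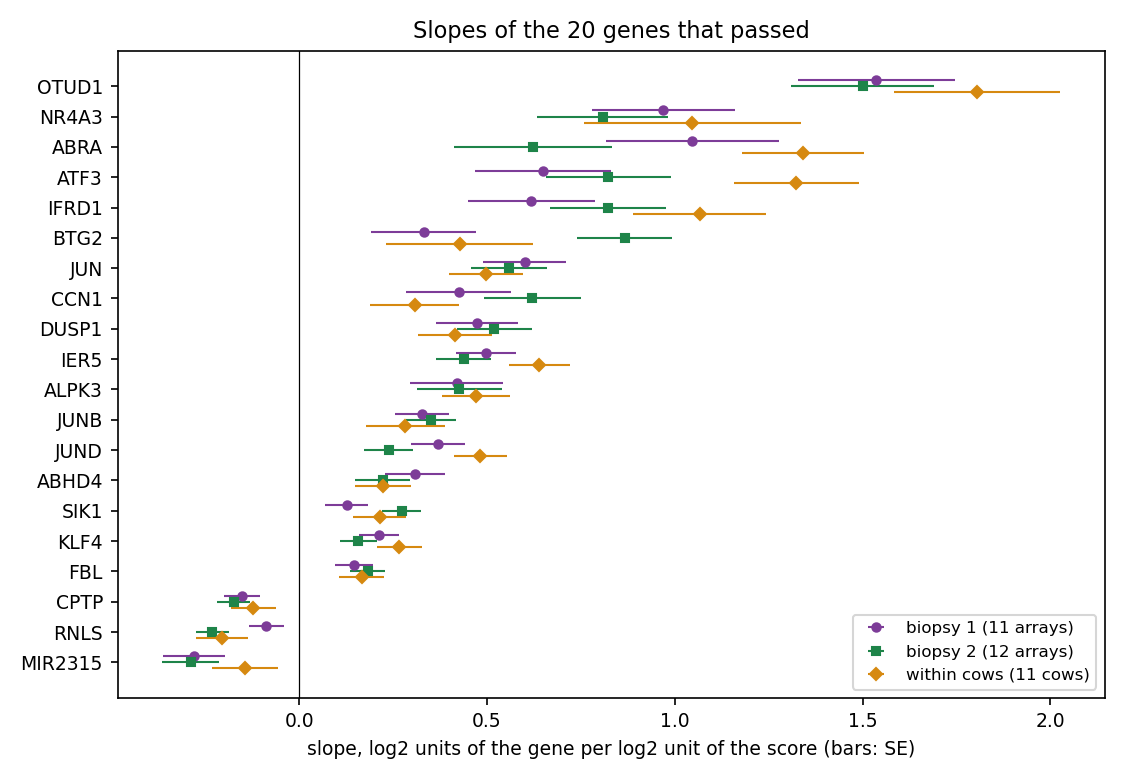
Slopes of the 20 genes (log2 units of the gene per log2 unit of the score, bars are SE) at biopsy 1 (11 arrays), at biopsy 2 (12 arrays) and within cows (11 cows). The biopsy slopes come from a joint fit with a shared estimate of spread. OTUD1 has the steepest slope at each biopsy and within cows, there 1.804, and the 3 genes at the bottom have negative slopes.

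Single cows weighed on the count. Leaving out each of the 12 cows in turn gave 9 to 80 genes, and 7 genes passed in all 12 fits: OTUD1, IER5, JUN, JUNB, DUSP1, NR4A3 and IFRD1. ATF3, BTG2 and JUND were lost only without low gain cow 1, whose biopsy 2 array has the highest score. That fit gave 9 genes and lost 12 of the 20. Without high gain cow 1, 80 genes passed with all 20 among them, and 11 to 13 passed without high gain cow 3, 4 or 5 or low gain cow 2 or 4. The FOS-low array of high gain cow 1 at biopsy 1 was the highest of its group for 12 of the 17 genes that rose, JUN, ATF3, OTUD1 and DUSP1 among them. High gain cow 2 at biopsy 1 and low gain cow 1 at biopsy 2 were the highest FOS-high arrays for 12 and 10 of the 17.

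Covariates moved the count as well. With the slow fibre mean added 11 genes passed, 9 of them from the 20, with the adipocyte mean 16 (14 from the 20) and with gain class 34 (19 from the 20). The 7 arrays in neither group, which span scores of 9.16 to 9.84 at biopsy 1 and 9.35 to 10.47 at biopsy 2, gave no call on their own (678 at an unadjusted p under 0.05), and 14 of the 20 slopes kept their sign there.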

How the data were processed

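Total RNA of 24 muscle biopsies was labelled with biotin and hybridized to Affymetrix arrays, per the labels' protocols. The submitters' processing notes name Affymetrix Expression Console and Transcriptome Analysis Console, and neither versions nor normalization are given in the sources used here. The range of the deposited values fits a log2 scale, whose base no source states. The highest value differed by biopsy number (19.8071 and 19.9315), and no test rests on a difference in level between the 2 sets.

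Of 26773 features 18790 had 1 gene symbol in the platform annotation, 385 several and 7598 none. The feature with the highest mean stood for the 320 genes that had more than 1. A gene was tested if its mean reached 6.76, the value of the 25th percentile over features. ACTA1 chose the arrays at 18 or more, which left out low gain cow 4 at biopsy 1.

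limma 3.58.1 in R 4.3.3 (lmFit, eBayes with a trend) was run on the deposited log2 values, with Benjamini-Hochberg adjustment at 0.05 over 14196 genes, biopsy number as a block and FOS and FOSB left out. The slope used the score centred within each biopsy. Errors are limma's moderated SE unless marked SD, and the number of arrays limits precision. Scores were compared by permutation tests in Python 3.11.15 with scipy 1.17.1. The functions were tested on simulated data.

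A cow's 2 arrays carry the same animal number in their titles. The consensus correlation of a cow's arrays was 0.111 in the group comparison and 0.0876 along the score, and a fit with the cow as a random block was an alternative.

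The members, gene lists and tests were chosen with earlier results of these data known. The rule for named genes took the 10 with the smallest p in each direction, up to 4 with the smallest p from each list, the 10 most and 5 least like the score, and 5 in each direction by the difference between biopsies, of which list members without a result are not printed. Every gene past the threshold in another fit and list members at an unadjusted p under 0.05 were added after their values were seen. Uninformative symbols (LOC numbers, accessions, clones, reading frames) were skipped.

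Alternatives covered the normalization, filter, features, moderation, array weights, blocks, covariates, group size, score, ACTA1 limit and each cow left out. Probe sequences and a genome were not used here.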

Additional observations from a re-analysis of the deposited data

Results flagged for a closer look

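The 20 genes that followed the score, FOS, FOSB and the score itself were screened for an array apart from the others in each of the 4 groups of 6 arrays by gain class and biopsy. Of 92 such groups 8 held one. Chance flags about 1 in 20 independent groups, and these measures are linked, since the score is made from FOS and FOSB and the genes follow it, so the count is a description. No explanation was tested for any. On low gain cow 4 at biopsy 1, the array below the ACTA1 limit, ABRA read 5.97 against 9.97 to 10.70 on the other 5 arrays of its group, ALPK3 8.12 against 12.37 to 12.84 and RNLS 8.54 against 9.40 to 9.63. ALPK3 read 11.37 on high gain cow 4 at biopsy 2, the array rich in adipocyte markers, against 13.54 to 14.08. High gain cow 5 at biopsy 1 had the highest CCN1 of its group, 13.15 against 10.34 to 11.33, and the highest JUNB, 10.44 against 8.35 to 9.10. IFRD1 read 15.83 on high gain cow 2 at biopsy 1 against 11.20 to 12.72. JUND read 10.46 on low gain cow 1 at biopsy 2 against 9.09 to 9.57.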

How the results depend on the processing

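The comparison of 8 with 8 gave 0 genes in the main fit, 4 with array weights, 1 with the adipocyte mean as a covariate and 0 to 7 with a cow left out. With the cow as a random replicate block it gave 0, and the block changed no other call by over 1.5 times: 0 at biopsy 1, 8 at biopsy 2, 0 for the difference between biopsies and 21 along the score. Within biopsy 1 the leave-one-out counts were 0 to 0, within biopsy 2 they were 0 to 123, and for the difference between biopsies 0 to 1. At biopsy 2 quantile normalization gave 2 genes and the slow fibre mean as a covariate 0. Along the score 20 genes passed, with 9 to 80 when a cow was left out, 11 on all 24 arrays without the ACTA1 limit, 8 with the cow as a fixed replicate block, 3 on cow means, 34 with gain class, 11 with the slow fibre mean and 0 in the 7 arrays of neither group. In those 7 arrays the slopes of ABHD4 (-0.33), ABRA (-0.64), ALPK3 (-0.18), FBL (-0.21), MIR2315 (0.12) and RNLS (0.078) turned. With the slow fibre mean added the difference of TNNT1, a member of that mean, turned to -0.0051. Of 93 named genes 5 passed in the group comparison under some alternative, and no other group difference of these turned.

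The score by gain class ran from -0.13 to 0.70 at biopsy 1 with a cow left out, turning to -0.10 and -0.13 without high gain cow 2 or 5. At biopsy 2 it ran from -1.98 to -1.12, and with FOSB alone it was -1.20 (exact permutation p = 0.0455). The correlation of a cow's scores ran from 0.44 to 0.73. The causes of these changes were not tested. Chosen after seeing the data were the slow fibre covariate, cow means, leaving out high gain cow 4 in the lists, markers at biopsy 2 included, and, for the regression, the fixed block, median centring, the mean of a gene's features, FOS or FOSB alone, all 24 arrays, the gain class and adipocyte covariates and the 7 middle arrays. Few arrays limit every value, and a biopsy number cannot be told apart from its processing set.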
